A study of Rattus norvegicus with 42 samples.

Results

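Potassium channel genes were compared between rat brain, lung and liver and followed through mixtures of their RNA. A gene was taken as a member when the platform annotation gave its probe set a single symbol that begins with Kcn, which found 126 probe sets of 75 genes among 31042 tested probe sets and 14217 named genes. The study measured Affymetrix rat GeneChip arrays of brain, lung and liver, alone and after labelled RNA of the 3 tissues had been combined in known shares. All RNA came from 1 untreated animal, and the labels give an age of 9 to 12 weeks. The 42 arrays formed 14 groups of 3, namely pure brain, pure lung, pure liver and 11 mixtures, each written as its labelled shares in percent, so that 25/70/5 held 25% liver, 70% brain and 5% lung. The 3 arrays of a group are technical replicates, so a p-value reflects only how arrays of the same RNA vary and says nothing of differences between animals, and the number of arrays limits the precision.

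Potassium channels let potassium ions leave or enter a cell down their gradient, and they set the resting voltage and end electrical signals. Voltage-gated channels (Kv) open on depolarisation and are tetramers of pore subunits that are often joined by auxiliary subunits. Inward rectifiers (Kir) and two-pore channels hold the resting voltage, and channels opened by calcium or sodium (Slo and SK families) link it to ion entry. Neurons use many of them to shape their firing, while epithelial cells use a smaller set to drive the transport of salt and fluid. The 75 genes were 31 Kv pore subunits, 11 Kv auxiliary subunits, 15 inward rectifiers, 11 two-pore channels and 7 genes of calcium-activated and Slo channels. A gene with several probe sets was represented by the one with the highest mean over all arrays. Levels are RMA values on the log2 scale, and folds and tests compare tissues for the same probe set. Levels of different probe sets were compared or added only to choose those to name, to mark low ones and to sum cell type markers. Bright probe sets weigh most in such sums.

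The windows around the annotated starts of 3 genes, the member furthest above the other tissues in brain (Kcnc2), in lung (Kcnj15) and in liver (Kcnk5), are printed 5′ to 3′. They are RefSeq sequence of the rat build GRCr8, run from 250 bases before the start to 50 bases from it, and carry in capitals each GGGCGG (GC box) and CCAAT found on either strand, the reverse complement included. Kcnc2 lies at chr7:49587364-49587663, Kcnj15 at chr11:48070700-48070999 and Kcnk5 at chr15:4171375-4171674, all on the plus strand.
Kcnc2: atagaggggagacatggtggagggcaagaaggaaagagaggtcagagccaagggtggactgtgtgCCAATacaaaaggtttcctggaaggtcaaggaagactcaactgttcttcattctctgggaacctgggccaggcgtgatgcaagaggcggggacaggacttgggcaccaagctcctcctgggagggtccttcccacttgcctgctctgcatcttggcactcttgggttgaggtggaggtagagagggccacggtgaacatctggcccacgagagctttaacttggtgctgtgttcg
Kcnj15: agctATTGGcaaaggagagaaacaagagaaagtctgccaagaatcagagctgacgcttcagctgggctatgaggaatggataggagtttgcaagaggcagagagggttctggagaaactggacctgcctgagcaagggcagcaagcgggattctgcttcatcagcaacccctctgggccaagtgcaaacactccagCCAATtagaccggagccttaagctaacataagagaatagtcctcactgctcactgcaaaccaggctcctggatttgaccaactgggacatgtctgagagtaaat
Kcnk5: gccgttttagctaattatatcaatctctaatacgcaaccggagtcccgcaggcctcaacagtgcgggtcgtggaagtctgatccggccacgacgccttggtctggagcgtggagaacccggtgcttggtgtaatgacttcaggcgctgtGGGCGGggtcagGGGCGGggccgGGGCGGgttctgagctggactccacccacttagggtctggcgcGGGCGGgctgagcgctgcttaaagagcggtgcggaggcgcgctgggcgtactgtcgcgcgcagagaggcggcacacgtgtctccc
The Kcnk5 window held 30 CpG and 4 GC boxes, the Kcnc2 window 5 CpG and 1 CCAAT, and the Kcnj15 window 3 CpG and 2 CCAAT. A window was found for 52 of the 75 members. GGGCGG occurred in 57.7% of these and in 57.5% of the 11701 windows of all measured genes, and CCAAT in 26.9% and 37.3%. TATAAA occurred in 2 member windows (3.85%) and 8.46% of all, and the AP-1 motif TGANTCA in 3 (5.77%) and 5.43%. The left part of the RE1 element that the neuronal repressor REST binds is TTCAGCACC. It was found in 1 member window (1.92%), that of Kcnh6, a gene enriched nowhere, and in 0.479% of all. Among the 26 windows of genes enriched in brain, 50.0% held GGGCGG, 26.9% CCAAT, 3.85% (1 window) TGANTCA, and none TATAAA or TTCAGCACC. A match is a run of letters in this window and is no evidence that a factor binds there.

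Markers of each tissue were checked in the pure arrays. All 5 neuron, 5 astrocyte and 5 oligodendrocyte markers were enriched in brain, all 4 markers of alveolar epithelium in lung and all 5 hepatocyte markers in liver. The summed linear level of the hepatocyte markers was 4834 to 4941 in brain, 67.38 to 84.62 in lung and 41420 to 44570 in liver. Alb (albumin) made up most of the brain sum, at 12.21 in brain, 5.07 in lung and 14.31 in liver. Apoa1, Tdo2, Cps1 and F2 averaged 4.02, 4.85, 6.06 and 4.54 in brain, against 11.83, 12.86, 12.51 and 12.56 in liver. Array medians lay between 5.48 and 5.83, and the median SD between arrays over member probe sets was 0.11 in brain, 0.13 in lung and 0.18 in liver. The bacterial dap control probe sets stood at 2.35 to 3.02, so folds against levels near 3 are approximate. The bioB hybridisation control averaged 7.74 in brain, 7.69 in lung and 8.60 in liver, so the scaling of liver against the others is uncertain. On the deposited scale the median of all probe sets differed by -0.18 between brain and liver, by -0.03 between brain and lung and by -0.12 between lung and liver, and a curve through the hybridisation controls moved these medians to 0.65, -0.10 and 0.78. In such bulk samples fewer cells of a type and less RNA per cell cannot be told apart.

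Brain held most of the tissue differences among potassium channel genes. By limma, with calls at a Benjamini-Hochberg adjusted p under 0.05 and at least 2-fold, 32 of the 75 genes were enriched in brain, meaning called higher there than in both lung and liver, against 11.7% of all genes. Lung had 6 enriched members (background 11.5%) and liver 2 (background 9.61%). The other 35 of the 75 members were enriched nowhere, against 9547 of all 14217 genes. Of these 35 members 28 had no call in any contrast. The share of all genes with no call was not counted, here or by class. Brain against liver gave 33 genes called higher and 3 lower (background 20.0% and 19.3%), and brain against lung 37 higher and 7 lower (background 15.5% and 20.8%). Lung against liver gave 10 higher and 6 lower (background 20.6% and 13.8%). The median difference over the members was 0.71 (log2) for brain minus liver, 0.93 for brain minus lung and -0.26 for lung minus liver, against -0.19, -0.09 and -0.03 over all genes. The 42 genes whose brain arrays all lay above all lung and liver arrays compare with 24.6% of all genes.

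The lung against liver split depended on scaling. It was 9 higher and 13 lower after centring each array on its median, 12 and 19 after subtraction of each array's 5th percentile, and 20 and 0 with the control curve. For brain against liver the split was 31 and 7 after centring, 39 and 9 after the subtraction, and 48 and 2 after the control curve. All 6 genes enriched in lung and 29 of the 32 enriched in brain were called so under each of the 5 scalings, and neither of the 2 enriched in liver was. The 3 brain genes that varied were Kcnj3, Kcnj4 and Kcnj14.

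**Figure D1:**
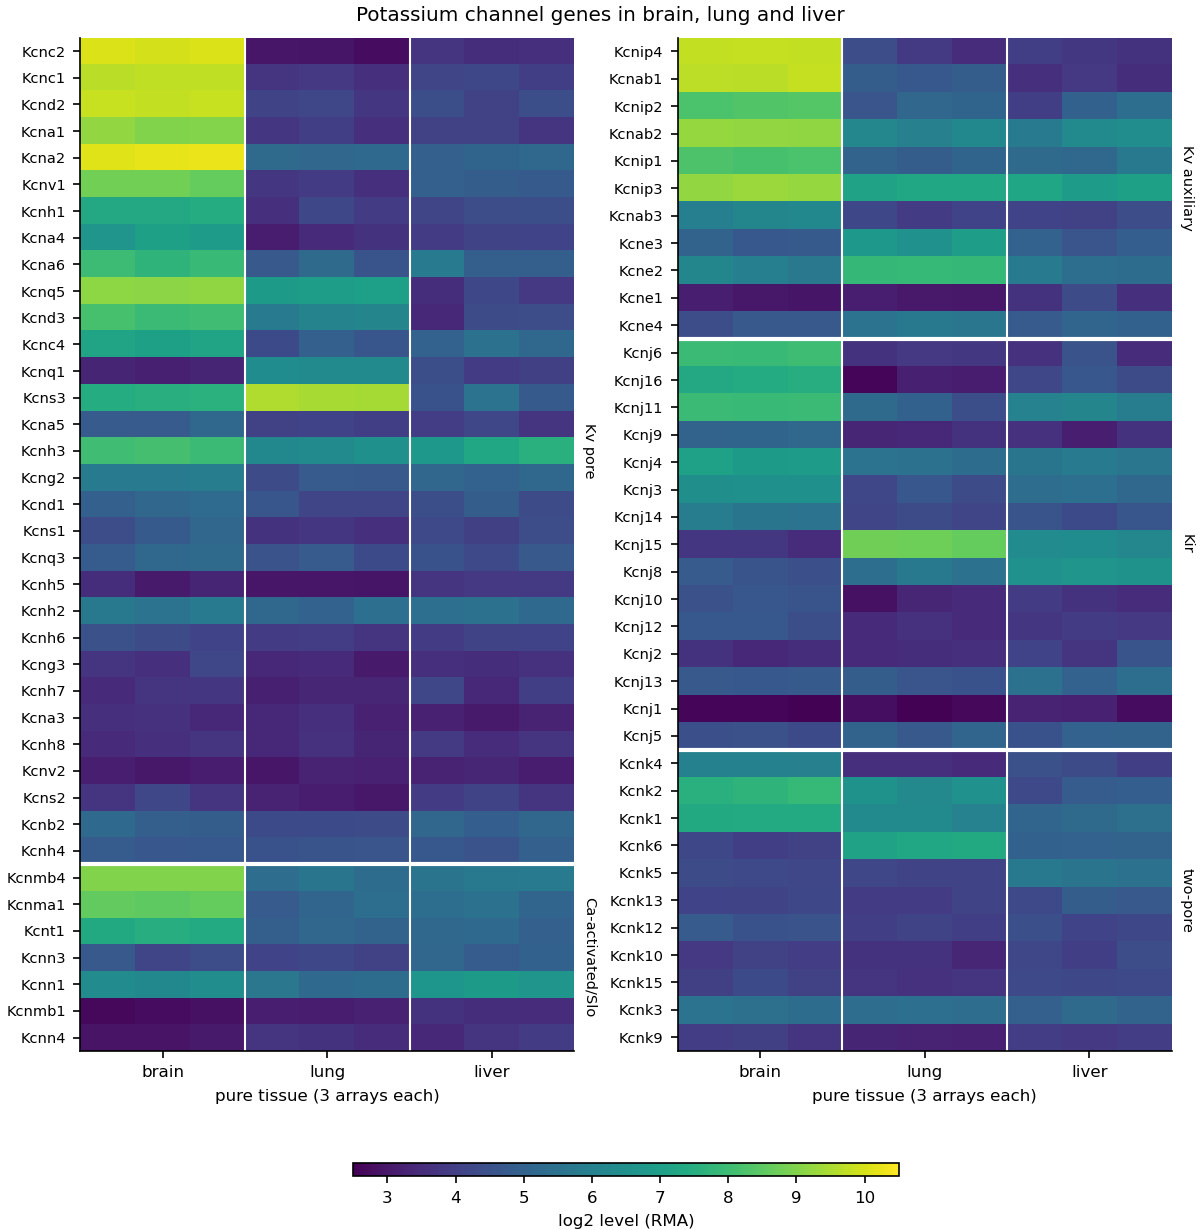
Log2 level (RMA, colour) of the 75 potassium channel genes, 1 probe set per gene, in each of the 9 pure arrays, with brain, lung and liver from left to right and the genes grouped by channel class. Within each class the genes enriched in brain come before those enriched in lung, liver or nowhere. Kcns3 and Kcnj15 stand out in lung, at means of 9.47 and 8.69.

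Kv pore subunits held the single largest difference, in Kcnc2, while their class medians of 0.71 for brain minus liver and 0.88 for brain minus lung were below the 2.18 and 2.04 of the auxiliary subunits. Of 31 genes 12 were enriched in brain, 2 in lung and none in liver, and 17 nowhere, 14 of those with no call. Kcnc2 and Kcnc1 encode Kv3 subunits, which close fast and let neurons fire at high rates. Kcnc2 read 10.09, 9.98 and 10.08 (log2) in the brain arrays, against 2.99, 2.96 and 2.78 in lung and 3.73, 3.54 and 3.6 in liver. The brain arrays stood far above all others, 85.9-fold over liver, the next tissue (difference 6.42, SE 0.07, limma adjusted p = 2.00e-39). Kcnc1 had 9.66, 9.74 and 9.74 in brain, against 3.70, 3.83 and 3.56 in lung and 4.16, 4.23 and 3.99 in liver. Its groups did not overlap either, with brain 48.0-fold over liver (adjusted p = 2.16e-37). Kcnd2 encodes Kv4.2, which carries the fast transient current of dendrites. Its levels were 9.82, 9.76 and 9.83 in brain, against 4.13, 4.19 and 3.78 in lung and 4.42, 4.05 and 4.42 in liver. That placed brain 45.5-fold above liver (adjusted p = 1.38e-32), while lung and liver overlapped.

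Of the 6 Shaker (Kcna) subunits, which include the main channels of axons, 4 were enriched in brain and Kcna3 and Kcna5 had no call. Kcna1 averaged 9.06 in brain, against 3.79 in lung and 3.94 in liver, and stood 35.0-fold above the next tissue. Kcna2 averaged 10.19 in brain, 5.21 in lung and 5.08 in liver (31.6-fold). Kcna4 and Kcna6 were 6.99-fold and 6.38-fold above the next tissue. Kcnv1, an electrically silent subunit that joins Kv2 channels, was 14.7-fold higher in brain, Kcnh1 (the ether-a-go-go channel) 8.24-fold and Kcnc4 3.70-fold. Kcnq5, a subunit of the M current, and Kcnd3 (Kv4.3) were the Kv pore genes enriched in brain that were also called higher in lung than in liver. Kcnq5 averaged 9.14 in brain, 6.95 in lung and 3.87 in liver, and Kcnd3 8.06, 6.01 and 4.05 in the same order of tissues. Brain was 4.55-fold and 4.15-fold above lung for these genes.

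Lung led for Kcns3 and Kcnq1. Kcns3 encodes Kv9.3, a silent subunit that joins Kv2 channels. It read 9.54, 9.44 and 9.43 in lung, against 7.46, 7.56 and 7.62 in brain and 4.51, 5.54 and 4.78 in liver. The 3 tissues did not overlap, and lung was 3.79-fold above brain (adjusted p = 1.92e-14). Kcnq1 encodes Kv7.1, the slow cardiac channel that also works in epithelia with KCNE subunits. Its levels were 6.39, 6.34 and 6.33 in lung, against 3.32, 3.22 and 3.33 in brain and 4.43, 3.88 and 4.03 in liver, 4.71-fold above liver (adjusted p = 9.57e-17). Lung tissue here also carried heart muscle transcripts: 5 of 6 heart muscle markers were enriched in lung, with a summed linear level of 1799 to 1837 in lung, 182.6 to 190.9 in brain and 151.8 to 180.2 in liver. Their part in the Kcnq1 level was not tested.

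Kcnh3 (Elk2) was among the 17 Kv pore genes enriched nowhere. It read 8.05, 8.14 and 7.95 in brain, against 6.22, 6.32 and 6.51 in lung and 6.76, 7.28 and 7.58 in liver. All brain arrays lay above all liver arrays, but the difference was 1.79-fold (adjusted p = 2.02e-08), under the 2-fold limit, while brain was called 3.23-fold above lung. Kcng2 and Kcns1, both silent subunits, were likewise called higher in brain than in lung alone. The other 14 of the 17 had no call, among them Kcna3, Kcna5 and Kcnb2 and the ether-a-go-go relatives Kcnh2 and Kcnh4 to Kcnh8, with mean levels between 2.98 and 5.68 in the pure tissues.

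Auxiliary subunits of Kv channels had 7 of 11 genes enriched in brain, 2 in lung and 2 nowhere. KChIP proteins bind Kv4 channels and tune their gating. Kcnip4 read 9.77, 9.79 and 9.76 in brain, against 4.38, 3.85 and 3.53 in lung and 3.99, 3.79 and 3.67 in liver. Lung and liver overlapped and brain was 57.9-fold above lung (adjusted p = 6.28e-32). Kcnab1, a beta subunit that can inactivate Shaker channels, read 9.69, 9.67 and 9.79 in brain, against 4.86, 4.69 and 4.85 in lung and 3.61, 3.83 and 3.54 in liver. Brain was 30.2-fold above lung (adjusted p = 2.48e-33), and no 2 tissues overlapped. For Kcnip2 the levels were 8.25, 8.32 and 8.39 in brain, against 4.62, 5.15 and 5.09 in lung and 4.0, 4.97 and 5.39 in liver. The liver arrays spread over more than a log2 unit, and brain was still 10.3-fold above lung (adjusted p = 2.50e-19). Kcnab2, Kcnip1, Kcnip3 and Kcnab3 were 8.12-fold, 7.11-fold, 4.10-fold and 3.79-fold above the next tissue.

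KCNE subunits are small membrane proteins that change the gating of Kv pores such as Kv7.1, and 3 of the 4 were highest in lung. Kcne2 read 7.83, 7.87 and 7.81 in lung, against 6.16, 5.95 and 5.70 in brain and 5.76, 5.38 and 5.34 in liver. Lung was 3.73-fold above brain (adjusted p = 2.61e-18), and brain and liver overlapped. Kcne3 read 6.75, 6.54 and 6.97 in lung, against 5.05, 4.70 and 4.78 in brain and 5.01, 4.62 and 4.88 in liver, with lung 3.77-fold above brain (adjusted p = 2.64e-16). That difference was 0.68 (log2) as a mean over both of its probe sets, under the 2-fold limit. Kcne4 read 4.39, 4.74 and 4.72 in brain, 5.55, 5.73 and 5.65 in lung and 4.80, 5.12 and 4.97 in liver. All its lung arrays were the highest, but lung was 1.60-fold above liver (adjusted p = 3.97e-07). Kcne1 averaged 3.04 in brain, 3.08 in lung and 3.86 in liver, with no call.

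**Figure D2:**
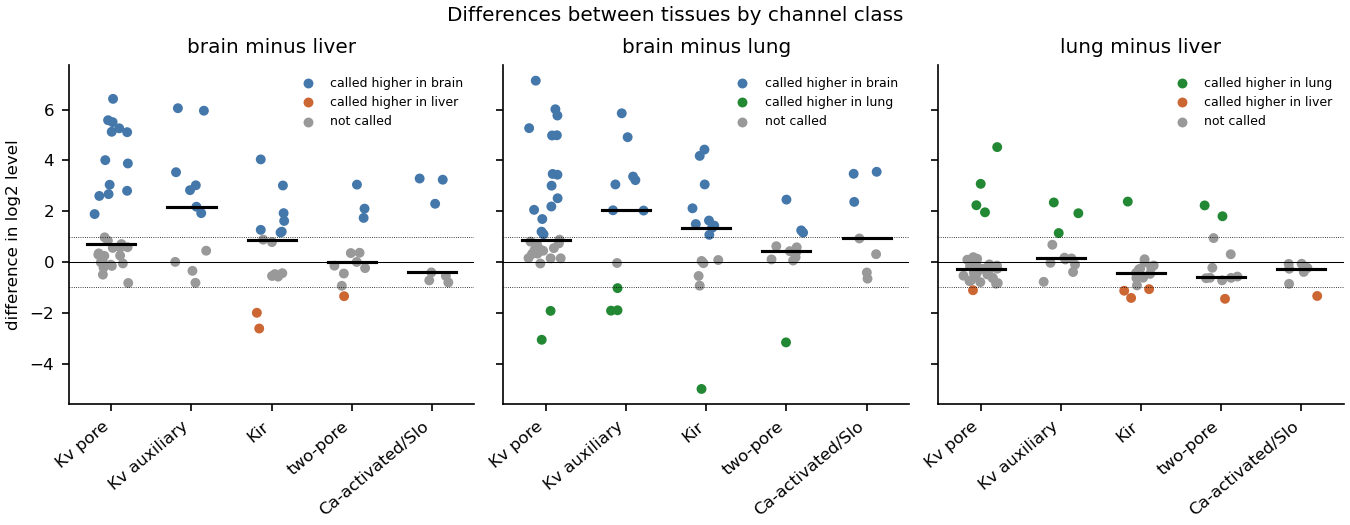
Difference in log2 level of each of the 75 genes for brain minus liver, brain minus lung and lung minus liver, by channel class, with a bar at the class median and dotted lines at 2-fold. Called genes are coloured by the tissue in which they were higher. The median of the Kv auxiliary subunits stands at 2.18 for brain minus liver and that of the calcium-activated and Slo genes at -0.41.

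Of the 15 inward rectifiers 7 (46.7%) were enriched in brain, 1 in lung and 1 in liver (background 11.7%, 11.5% and 9.61%). Kcnj6 encodes GIRK2, which opens when G proteins release their beta-gamma subunits. It read 7.95, 7.89 and 8.0 in brain, against 3.67, 3.83 and 3.80 in lung and 3.64, 4.56 and 3.52 in liver. Brain was 16.5-fold above liver (adjusted p = 3.19e-23), and 1 liver array stood well above the other two. Kcnj16 encodes Kir5.1, a partner of the glial and renal channel Kir4.1. Its levels were 7.34, 7.42 and 7.50 in brain, against 2.65, 3.22 and 3.10 in lung and 4.20, 4.68 and 4.33 in liver. Brain was 8.07-fold above liver (adjusted p = 2.43e-23), and lung was called below liver. Kcnj11 encodes Kir6.2, the pore of ATP-sensitive channels in neurons and pancreatic beta cells. It read 7.96, 7.91 and 7.96 in brain, against 5.26, 5.00 and 4.41 in lung and 6.06, 6.13 and 5.87 in liver, 3.80-fold above liver (adjusted p = 6.72e-16). The other brain genes were the G protein-gated Kcnj9 and Kcnj3 (3.07-fold and 2.29-fold) and the classical rectifiers Kcnj4 and Kcnj14 (2.41-fold and 2.24-fold).

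Kcnj15, which encodes Kir4.2, was the only member called different in all 3 contrasts with its lowest level in brain. Its levels were 8.76, 8.72 and 8.60 in lung, against 3.76, 3.80 and 3.53 in brain and 6.37, 6.38 and 6.19 in liver. No tissues overlapped: lung was 5.21-fold above liver (adjusted p = 2.59e-24) and 32.0-fold above brain (adjusted p = 6.50e-34). Its window printed above, with few CpG, differs from that of Kcnk5.

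Kcnj8 encodes Kir6.1, the ATP-sensitive pore of vascular muscle and pericytes, and was enriched in liver. It read 6.54, 6.67 and 6.62 in liver, against 4.81, 4.57 and 4.46 in brain and 5.39, 5.72 and 5.52 in lung. All liver arrays were the highest, 2.1-fold above lung (adjusted p = 4.47e-11), but the call was lost with the control curve, where the difference was 0.16 (adjusted p = 0.558), and without lung replicate 1, where it was 0.99. Of the 6 smooth muscle and pericyte markers 5 were enriched in lung. Their summed linear level was 382.4 to 402.5 in liver, 512.6 to 579.6 in brain and 4399 to 4469 in lung. Single markers differed between liver and brain, with Pdgfrb called 2.07-fold higher in liver and Rgs5 3.31-fold higher in brain. The part of such cells in the Kcnj8 level was not tested. Of the 6 inward rectifiers enriched nowhere, Kcnj13 (Kir7.1, a channel of transporting epithelia) read 4.73, 4.71 and 4.77 in brain, 4.87, 4.60 and 4.50 in lung and 5.47, 5.00 and 5.38 in liver. Brain and lung overlapped, and brain was 1.46-fold below liver, under the limit. Kcnj10, the glial Kir4.1, averaged 4.58 in brain, 3.23 in lung and 3.70 in liver. It was called higher in brain than in lung but was 1.84-fold above liver, although all 5 astrocyte markers were enriched in brain, and it and Kcnj12 (Kir2.2) were enriched in brain under 3 of the scalings.

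Two-pore channels pass background potassium current, and 3 of 11 were enriched in brain, 1 in lung and 1 in liver, with the other 6 free of any call. Kcnk4 (TRAAK) and Kcnk2 (TREK-1) open on stretch and warmth. Kcnk4 read 6.0, 6.01 and 6.0 in brain, against 3.57, 3.58 and 3.48 in lung and 4.48, 4.34 and 3.98 in liver. Brain was 3.33-fold above liver (adjusted p = 4.01e-14). Kcnk2 read 7.58, 7.72 and 7.86 in brain, against 6.61, 6.25 and 6.55 in lung and 4.27, 4.84 and 4.90 in liver. The 3 tissues were separate, with brain 2.37-fold above lung (adjusted p = 2.57e-12), and the difference was 0.66 (log2) as a mean over both probe sets. Kcnk1 (TWIK-1) read 7.36, 7.38 and 7.40 in brain, against 6.29, 6.32 and 6.06 in lung and 5.11, 5.28 and 5.46 in liver. It kept the same order of tissues, with brain 2.23-fold above lung (adjusted p = 6.11e-15).

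Kcnk6 (TWIK-2) led in lung and Kcnk5 (TASK-2, an acid-sensitive channel of renal epithelia) in liver. Kcnk6 read 7.10, 7.31 and 7.35 in lung, against 4.22, 3.97 and 4.06 in brain and 5.00, 5.03 and 5.04 in liver. Lung was 4.69-fold above liver (adjusted p = 1.29e-20) with no overlap. Kcnk5 read 5.75, 5.59 and 5.49 in liver, against 4.33, 4.26 and 4.19 in brain and 4.20, 4.15 and 4.13 in lung. All liver arrays were the highest, 2.54-fold above brain (adjusted p = 3.00e-14), and the difference was 0.49 (adjusted p = 0.0608) with the control curve. The 3 measured bile duct markers were enriched in lung, with a summed linear level of 205 to 211.5 in liver, 39.57 to 45.31 in brain and 3457 to 3636 in lung. The part of bile duct cells in the Kcnk5 level was not tested. Of the 6 genes enriched nowhere, Kcnk3 (TASK-1) read 5.56, 5.47 and 5.33 in brain, against 5.37, 5.44 and 5.37 in lung and 4.94, 5.26 and 5.06 in liver. Brain and lung overlapped (1.04-fold, adjusted p = 0.577).

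**Figure D3:**
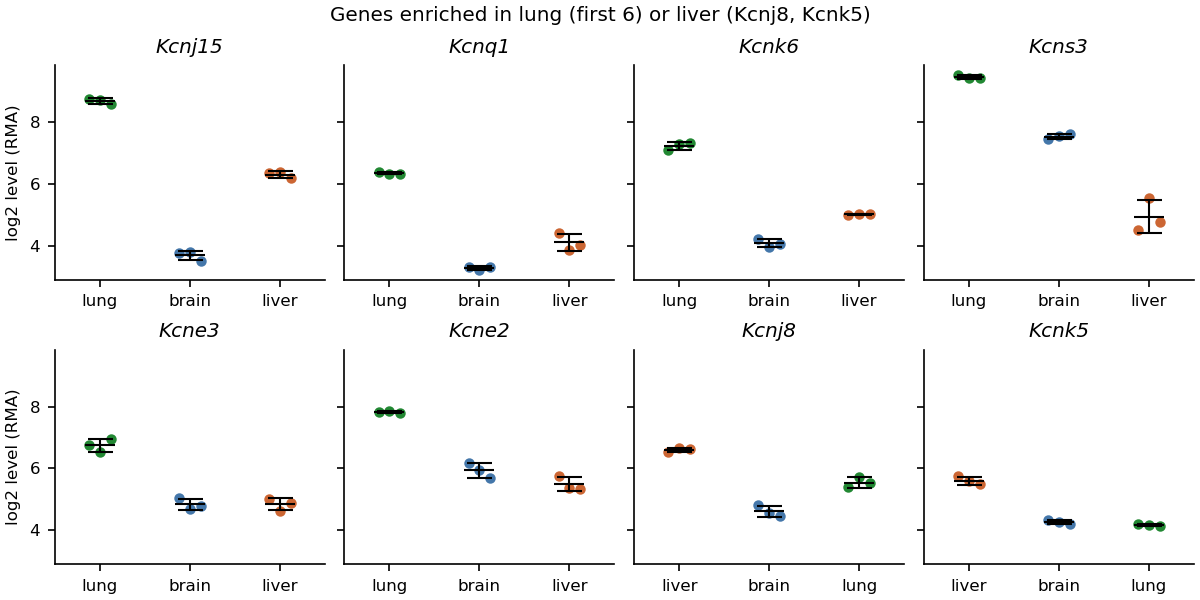
Log2 level (RMA) in the pure arrays of the 6 genes enriched in lung and the 2 enriched in liver, with each gene's own tissue at the left, points for the 3 arrays and bars for the mean and SD. Kcnj15 spans the widest range, from 8.60 to 8.76 in lung and 3.53 to 3.80 in brain, and Kcns3 stands higher in brain than in liver.

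Among calcium-activated and Slo channels 3 of 7 genes were enriched in brain and none in lung or liver. Kcnma1 encodes the BK pore, which calcium and voltage open together, and Kcnmb4 its neuronal beta subunit. Kcnmb4 read 8.97, 9.00 and 8.99 in brain, against 5.37, 5.60 and 5.33 in lung and 5.57, 5.72 and 5.80 in liver. Kcnma1 read 8.58, 8.52 and 8.61 in brain, against 4.78, 5.10 and 5.40 in lung and 5.38, 5.49 and 5.11 in liver. Pore and subunit moved alike, 9.45-fold above liver for Kcnma1 (adjusted p = 3.00e-26) and 9.77-fold for Kcnmb4 (adjusted p = 2.96e-29). Kcnmb1, the beta subunit of smooth muscle, stood near the dap controls at 2.77 in brain, 3.18 in lung and 3.58 in liver, although smooth muscle markers were high in lung. Kcnt1 encodes Slack, which sodium opens. It read 7.35, 7.48 and 7.40 in brain, against 4.93, 5.13 and 5.06 in lung and 5.16, 5.22 and 4.96 in liver, 4.90-fold above liver (adjusted p = 1.87e-24). Of the SK family, Kcnn1 read 6.35, 6.24 and 6.43 in brain, 5.66, 5.23 and 5.34 in lung and 6.72, 6.87 and 6.66 in liver. It was called 2.53-fold lower in lung than in liver (adjusted p = 1.62e-12) while brain and liver differed by 1.33-fold, and Kcnn3 and Kcnn4 had no call.

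Genes outside the family whose proteins assemble with these channels were read from a list of 20, of which 17 were measured. Of these 8 were enriched in brain, 1 in lung, none in liver and 8 nowhere (background 11.7% for brain, 11.5% for lung and 9.61% for liver). Brain against liver gave 10 called higher and none lower (background 20.0% and 19.3%), and brain against lung 10 and 1 (background 15.5% and 20.8%). Lung against liver gave 3 and 2 (background 20.6% and 13.8%), near the background, and 8 and 1 with the control curve. Adam22 and Lgi1, which hold Kv1 channels at synapses and axons, were 98.9-fold and 16.4-fold above the next tissue. Dpp6 and Dpp10, partners of Kv4, were 30.0-fold and 8.27-fold higher, and Cntnap2, which clusters Kv1 channels beside the nodes of axons, 24.0-fold. Amigo1, Dlg4 and Dlg2 were 5.26-fold, 3.94-fold and 2.29-fold higher. Abcc9, the sulfonylurea receptor SUR2 that pairs with Kir6 pores, was 3.20-fold higher in lung than in brain. Its level averaged 7.98 in lung, 6.30 in brain and 5.65 in liver, so its highest tissue differed from that of Kcnj8. Abcc8, the receptor SUR1, averaged 5.20 in brain, 3.21 in lung and 5.27 in liver.

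The members were not covered evenly by probe sets. Of the 31 genes with several, 17 had probe sets that differed in the tissue with the highest mean. Of the 21 brain genes with several, 6 had all their probe sets enriched in brain. Shares over all genes with several probe sets were not counted, so neither count is read as particular to the members. Among the lung genes Kcnj15, Kcnk6 and Kcne3 each had 1 of 2 probe sets enriched in lung, and Kcne2 had 2 of 3. Lung was highest in every probe set of these genes but 1 of Kcne3. The second Kcnj15 probe set gave -1.23 (log2) for brain minus lung. Over probe sets 49 were enriched in brain, 7 in lung and 3 in liver (background 11.5%, 8.95% and 7.28%). Kcnc2 had 5 of 6 enriched in brain, and the other one averaged 3.78 in brain, 3.61 in lung and 4.21 in liver. Kcna2 had 1 probe set enriched in brain and 1 enriched in liver, the second at 4.24 in brain, 3.94 in lung and 5.26 in liver. Kcnq5 had 1 of 3 enriched in brain, and the other two were highest in liver, at 6.14 and 4.67. Kcnj6 had 1 of 4 enriched in brain. The disagreeing genes whose highest values also differed at least 2-fold were Kcnc2, Kcna2, Kcnq5, Kcnj6, Kcna6, Kcnc4, Kcnd3, Kcne3, Kcng2, Kcnip1, Kcnip2, Kcnj3, Kcnj11, Kcnk2, Kcnk3 and Kcnt1. Low levels also limited the members: 35 of the 75 genes had their highest group mean under 5.73, the median of all values, and 3 of those were enriched. The share of all genes under that cut was not counted. Liver was the highest tissue for 51.4% of the 35 members enriched nowhere, against 42.4% of all such genes, brain for 42.9% against 25.5% and lung for 5.71% against 32.2%.

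The mixtures asked whether the tissue differences could be read when RNA was combined. In a pair of mixtures a probe set was called at adjusted p under 0.05 by limma, with no limit on the fold. With the brain share at 70% against 25% and lung at 5% in both (25/70/5 minus 70/25/5), 62 of the 126 probe sets were higher and 5 lower (background 30.9% and 22.1%). All 32 genes enriched in brain were higher, as were 99.5% of all brain-enriched genes. Their median difference was 0.78 (log2) observed, against 1.11 predicted from the pure levels weighted by the shares, and over all brain-enriched genes it was 0.76 observed against 1.03 predicted. Kcnc2 averaged 9.81 ± 0.03 (SD, n = 3) in 25/70/5 and 8.89 ± 0.02 in 70/25/5. Both genes enriched in liver were lower (96.9% of all such genes), with Kcnk5 at 4.17 in 25/70/5 and 4.93 in 70/25/5. The pair 70/25/5 minus 70/5/25, in which brain replaced lung, gave 54 higher and 14 lower (background 21.4% and 25.4%). There 31 of the 32 brain genes were higher (99.0% of all brain-enriched genes) and all 6 lung genes lower (98.6% of all lung-enriched genes). The brain genes' median was 1.34 observed against 1.04 predicted, and over all brain-enriched genes it was 1.08 observed against 0.79 predicted.

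Brain genes also differed between mixtures with equal brain shares. In 5/25/70 minus 70/25/5 both mixtures held 25% brain, and 11 probe sets were higher and 57 lower (background 30.6% and 30.7%). The lower ones included 24 of the 32 genes enriched in brain, against 59.3% of all brain-enriched genes. Their median was -0.43 observed and -0.02 predicted, and over all brain-enriched genes -0.29 observed and 0.00 predicted. Kcnj6 averaged 6.23 ± 0.07 in 5/25/70 and 6.80 ± 0.05 in 70/25/5, where the prediction was 6.17 and 6.19, and Kcnma1 7.01 ± 0.07 and 7.56 ± 0.07. Observed values in 70/25/5 lay above those in 5/25/70 on every array of both genes. With the curve through the hybridisation controls 0 of the 126 probe sets were lower. All 6 genes enriched in lung were higher in 5/25/70, as were 100% of all lung-enriched genes, and both liver genes lower, as were 99.0% of all liver-enriched genes.

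**Figure D4:**
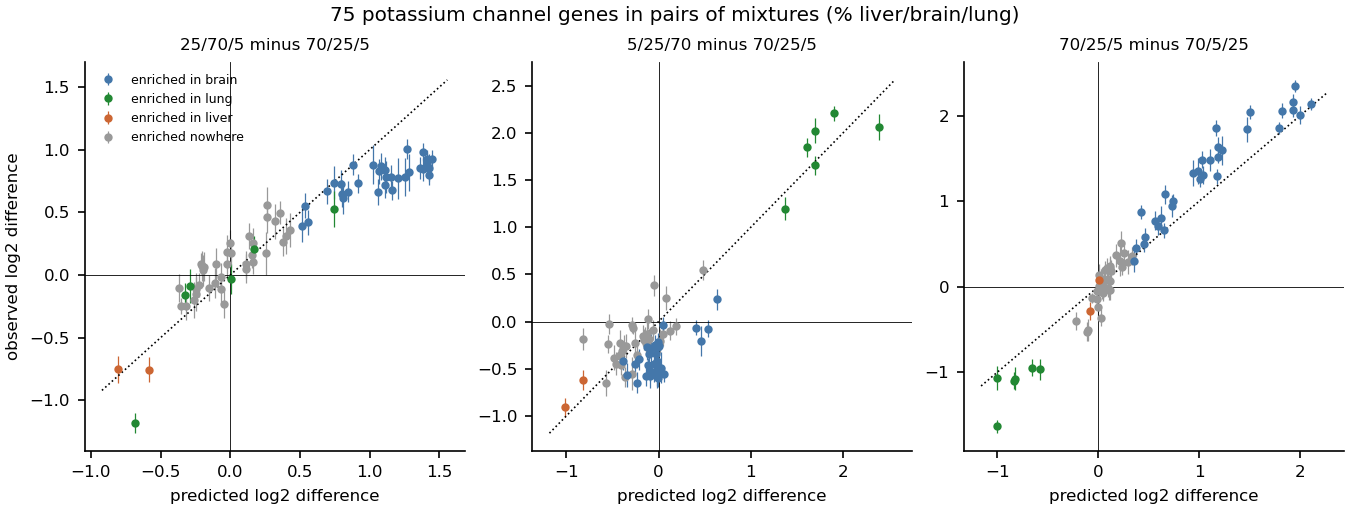
Observed against predicted log2 difference of the 75 genes in 3 pairs of mixtures named as percent liver/brain/lung, coloured by the tissue of enrichment, with the SE of the observed difference and a dotted line of equality. In the middle pair, at equal brain share, most brain genes were observed below 0 and predicted near it, with medians of -0.43 observed and -0.02 predicted.

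At the lowest brain share, 5% in 70/5/25, 17 of the 32 brain genes were above both pure lung and pure liver at adjusted p under 0.05 (a test added after the values were seen), against 34.9% of all brain-enriched genes and 4.10% of all genes. Kcnc2 was at 6.90, 6.77 and 6.58 in 70/5/25, against 2.91 in lung and 3.63 in liver (larger adjusted p = 3.44e-29). Each array of the mixture lay far above both. Kcnq5 at 6.75 in 70/5/25 was below the 6.95 of lung, and Kcnk2, Kcnk1 and Kcnd3 were likewise below lung. Kcnj15 averaged 4.87 with 1% lung, between 4.82 and 6.0 in the 3 mixtures with 5%, 5.96 and 6.05 with 10%, 6.46 with 15%, 6.88 with 20%, 7.17 and 7.64 with 25%, and 8.21 with 70%. The lung share alone did not set the order, since 25/70/5 lay below 65/34/1 and 45/45/10 below 70/25/5. Those 3 levels at 5% lung rose with the liver shares of 25%, 60% and 70% and fell with the brain shares of 70%, 35% and 25%. These shares cannot be told apart there. The difference of 25/70/5 minus 70/25/5 was -1.18 (log2) observed and -0.68 predicted. Kcns3 was at 6.58 with 1% lung and 8.95 with 70%.

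**Figure D5:**
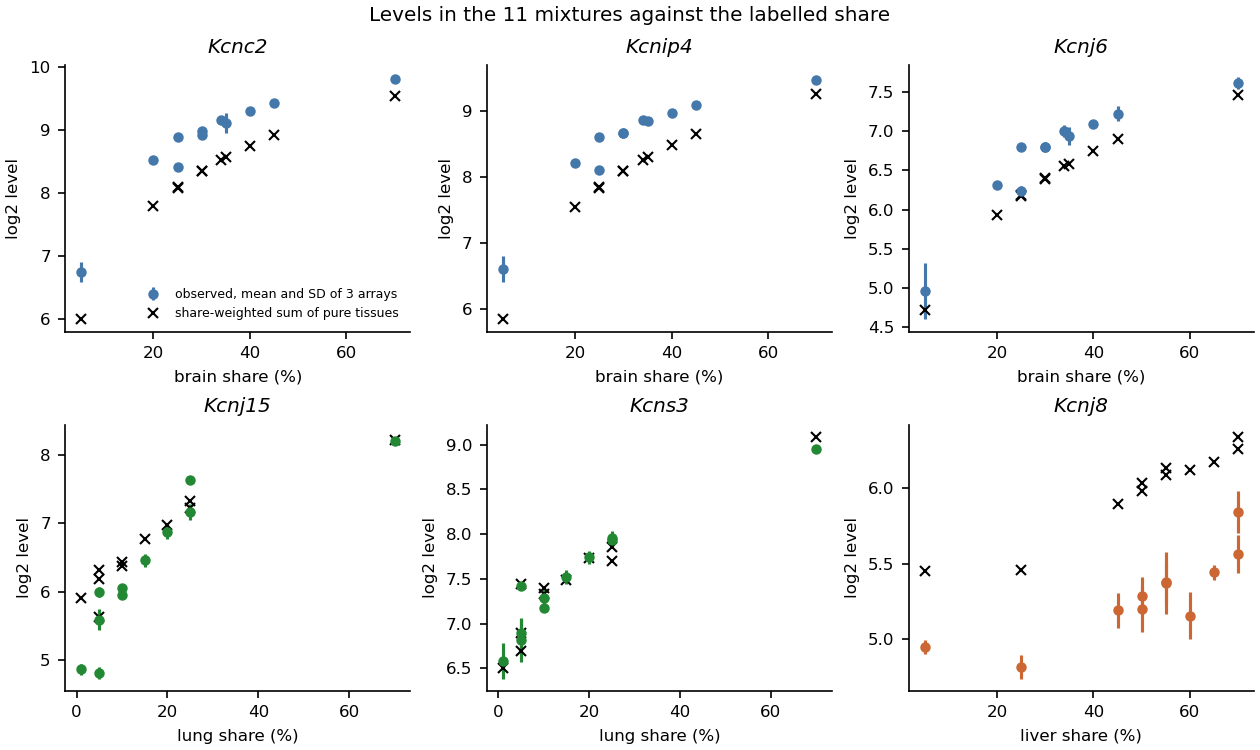
Log2 level of 6 genes in the 11 mixtures against the labelled percentage of the tissue in which each is enriched, with the mean and SD of 3 arrays as points and the level predicted from the pure tissues as crosses. Kcnc2 and Kcnip4 lie above the crosses at each share, and Kcnj8 lies below them.

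Departures from linear mixing were taken as the mean over the mixtures of the observed log2 level less the level predicted from the pure tissues and the shares, called at adjusted p under 0.05 and 1.5-fold. With limma's spread none of the 126 probe sets was called above and 3 below (background 0.325% and 4.84%). The 3 were Kcnk6 at -0.74 (SE 0.05), Kcnj8 at -0.71 (SE 0.06) and Kcnk5 at -0.60 (SE 0.06), both liver genes and 1 lung gene. Without the fold limit 21 were above and 72 below at adjusted p under 0.05 (background 10.0% and 74.3%), and 21 and 73 at an unadjusted p under 0.05. These counts depended on the processing, from 0 to 28 above and 0 to 16 below over the alternatives, with 28 and 0 for a prediction on the log2 scale and 1 below with the control curve. The median over the members was -0.17, against -0.22 over all probe sets, and turned to 0.048 with dim probe sets removed. The highest values were 0.58 for Kcnab1 and Kcnc2. Of the 49 probe sets enriched in brain 33 departed upward, with a median of 0.12, against 71.9% and 0.13 for all probe sets enriched in brain. The 3 enriched in liver had a median of -0.60, against -0.52 for all probe sets enriched in liver. For the 7 enriched in lung it was -0.28, against -0.24 for all such probe sets. Downward departures of liver and lung genes were thus shared with other genes of these tissues.

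Tissue levels were also estimated from the 11 mixtures alone by a linear regression on the shares. For brain against liver 63 probe sets were called higher and 14 lower (background 32.1% and 28.6%), for brain against lung 77 and 13 (background 28.9% and 31.7%), and for lung against liver 10 and 62 (background 30.7% and 29.2%). With the control curve the split was 111 and 2 for brain against liver, and it turned to 36 and 0 for lung against liver. All 32 brain, 6 lung and 2 liver genes were called higher in that same tissue than in both others, against 100%, 99.9% and 97.7% of all genes so enriched. A further 10 genes were called highest in brain, namely Kcna5, Kcnd1, Kcng2, Kcnh2, Kcnh3, Kcnj10, Kcnj12, Kcnk12, Kcnq3 and Kcns1. Kcne4 and Kcnn4 were called highest in lung and Kcnn3 in liver. In all 42 members were so called in brain, 8 in lung and 3 in liver, against 24.3%, 26.0% and 15.9% of all genes. Of the 12 probe sets called higher in lung than in liver in the pure arrays, 8 were called so from the mixtures and 1 the other way. That one was Kcnab1, whose estimates were -18.9 for lung and 179 for liver on the linear scale, with a negative level that no tissue can have. Over all members 13 of the 126 lung estimates were negative, 1 brain estimate and no liver estimate. Shares over all probe sets were counted neither for calls kept or turned between pure arrays and mixtures nor for negative estimates.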

How the data were processed

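The table deposited by the authors holds log2 levels made with RMA, as the submitters' processing notes record, its version not given in the sources used here. Every column of the table was tied to a sample, leaving 0 unmapped, and no replicate pair shared more than 28 values that were equal to every deposited digit. Gene names came from the platform annotation, and all 75 gene identifiers were matched in the GRCr8 gene table with 0 symbols changed. The tests leave out 57 control probe sets.

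Group means of all 42 arrays were estimated in a single linear model (limma 3.58.1 under R 4.3.3; 28 residual and 4.56 prior degrees of freedom). Benjamini-Hochberg adjustment ran over 31042 probe sets. No pseudocount was added. The mixtures alone were fitted by regression of linear means with 8 residual degrees of freedom. The steps were tested on simulated data. The members, lists, tests and classes were chosen with earlier results of these data known. Values in every pure array are given for, within each class and tissue, the 3 enriched genes with the largest smaller difference, for every gene enriched in liver, and for the gene with the highest mean among those enriched nowhere. Genes whose probe sets disagree by 2-fold and called departures are named. Alternatives covered the arrays fitted, scaling, background, dim probe sets, probe sets per gene, variance model, mixing scale and leaving out each array. Figures used matplotlib 3.10.9 under Python 3.11.15.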

Additional observations from a re-analysis of the deposited data

How the results depend on the processing

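Of 522 values under alternatives to the deposited scale, filter and model, 467 kept their direction, side of the threshold or count within 1.5 times. Of 2856 values with 1 array left out, 2847 did. After centring arrays on their medians, genes lower in brain than in liver numbered 7, lower in lung than in liver 13, partners lower in lung than in liver 4, probe sets lower in 25/70/5 than in 70/25/5 11, and departures below linear mixing 8. Repeating the quantile normalization gave 1 departure above and 6 below. Subtracting the 5th percentile gave 9 genes lower in brain than in liver, 19 lower in lung than in liver and 5 enriched in liver. It also gave 2 partners lower in brain than in lung, 6 higher in lung than in liver, 2 departures above, 16 below, and 7 probe sets lower in brain than in liver from the mixtures alone. The control curve gave 20 genes higher and 0 lower in lung than in liver, 0 enriched in liver, 8 partners higher and 1 lower in lung than in liver, and 1 departure below. Probe sets lower in the mixture pairs then numbered 1 (25/70/5 minus 70/25/5), 0 (5/25/70 minus 70/25/5) and 7 (70/25/5 minus 70/5/25). From the mixtures alone it gave 111 higher and 2 lower for brain against liver and 36 higher and 0 lower for lung against liver. With dim probe sets removed, which leaves fewer to test, the median departure reversed to 0.048. Liver then had 1 enriched gene, lung against liver 1 lower partner, the pairs 2 lower (25/70/5 minus 70/25/5), 7 higher (5/25/70 minus 70/25/5) and 8 lower (70/25/5 minus 70/5/25). The mixtures alone then gave 4 lower in brain than in liver, 47 higher and 8 lower in brain than in lung, and 36 lower in lung than in liver. Averaging the probe sets of a gene gave 6 genes higher in lung than in liver. A share-weighted mean of log2 values, which is never above the log2 of the mean, gave 28 departures above and 0 below. Regression of log2 means gave 41 lower in lung than in liver, and a fit with no variance trend 8 lower in brain than in liver. For the other changes the cause was not tested.

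Leaving out 1 array, genes enriched in liver ranged from 1 to 2, and without lung replicate 1 the call of Kcnj8 was lost. Departures above ranged from 0 to 2, with 2 without brain replicate 3, and departures below from 2 to 6, with 6 without liver replicate 2. No paired analysis was possible because the labels give no replicate numbers that tie arrays of different groups together. Signal over background limits the low members: 35 of the 75 genes stayed under the median of all values in every group.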
